A study of Mus musculus with 15 samples.

Results

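Ribosome biogenesis factors are the proteins that transcribe, cut, modify and fold ribosomal RNA and fit it together with ribosomal proteins. A list of 34 of these nucleolar and ribosome assembly genes was followed in mouse pancreas, out of 49585 genes in the count tables. Genes were placed on the list for what their products do. The list was drawn up with earlier results of these data known. In each of 3 experiments 33 of the 34 passed the filter on low counts. The exception was Wdr74, an assembly factor of the large subunit, which the MC table does not list and which had 0 to 2 counts per library in the other tables, within the 3 counts that a count of 0 allows.

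RNA-Seq was performed on tissue labelled pancreas of C57BL/6 mice, with RNA pooled from 3 mice for each library. The MC experiment held 3 libraries of MC mice, which express M46, the kinase-dead form of HPK1 (gene Map4k1, a kinase of the Ste20 family), and 3 control libraries labelled "B control", all at 2 months. The HC experiment held 3 libraries of mice labelled as HPK1 transgenic (HC) and 2 labelled wild type, all at 4 months. For its RNA-Seq of HC mice and their controls the study gives a younger age than these labels. The KMC experiment held 2 libraries of KMC mice, which express M46, at 9 months, and 2 of KC mice, which do not, at 15 months, so that age and genotype cannot be told apart there. The study describes its KMC and KC RNA-Seq material as pancreatic ductal adenocarcinoma, whereas the labels give pancreas only. According to the study's methods, the transgenes were switched on by tamoxifen through a Cre driven by the acinar elastase I promoter. In its discussion the study adds that these mice kept their own HPK1. Cerulein, a peptide that injures the exocrine pancreas, was given to the HC and MC mice. For the controls, the study gives cerulein where it introduces the RNA-Seq and injections of buffered saline in its methods, and the labels name no treatment. If the controls had saline, transgene and treatment cannot be told apart in the MC and HC experiments. Because the experiments were deposited in separate tables, each group was compared with its own control.

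Ribosomes are assembled in the nucleolus. RNA polymerase I makes a long precursor RNA, small nucleolar ribonucleoproteins (snoRNPs) guide its chemical modification, and separate sets of factors then build the small and the large subunit. Acinar cells of the pancreas, which secrete digestive enzymes, are among the most active protein-making cells of the body and are rich in ribosomes. Many genes of the pathway are textbook targets of the transcription factor MYC, which binds the E-box CACGTG.

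Promoter sequences are shown because the factors are known to be driven together. The RefSeq promoter table (GRCm38.p6) held 27 of the 34 genes, each with 250 bases before and 50 bases after the start. On either strand, an E-box was found in 8 of the 27 (29.6%), against 8.91% of 17492 protein-coding genes. For CCGGAAG or its reverse complement CTTCCGG, the core of sites for ETS factors, the count was 7 of 27 (25.9%), against 12.9%. Before the start alone, the E-box was in 3 of 27 (11.1%, against 7.61%) and the ETS core in 5 of 27 (18.5%, against 10.2%). No test was made of these shares, and a match says nothing of binding. The 250 bases before the start are given for Rrn3, which holds the E-box 2 times, for Nolc1, which held an ETS core, and for Gnl3, the factor with the largest difference in MC, which held neither in this window. Capitals mark the E-boxes and the ETS core.
Rrn3, plus strand, chr16:13780449-13780698: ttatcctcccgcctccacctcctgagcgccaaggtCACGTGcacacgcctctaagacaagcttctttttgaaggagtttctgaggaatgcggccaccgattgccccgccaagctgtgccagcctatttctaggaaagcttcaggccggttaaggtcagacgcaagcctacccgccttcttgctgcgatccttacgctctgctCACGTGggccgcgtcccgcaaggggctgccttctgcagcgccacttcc
Nolc1, plus strand, chr19:46075597-46075846: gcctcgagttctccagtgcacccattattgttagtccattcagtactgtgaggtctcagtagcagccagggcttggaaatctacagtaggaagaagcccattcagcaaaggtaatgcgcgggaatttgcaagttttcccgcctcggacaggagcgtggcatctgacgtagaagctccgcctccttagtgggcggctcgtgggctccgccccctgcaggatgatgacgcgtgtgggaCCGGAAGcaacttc
Gnl3, minus strand, chr14:31019132-31019381: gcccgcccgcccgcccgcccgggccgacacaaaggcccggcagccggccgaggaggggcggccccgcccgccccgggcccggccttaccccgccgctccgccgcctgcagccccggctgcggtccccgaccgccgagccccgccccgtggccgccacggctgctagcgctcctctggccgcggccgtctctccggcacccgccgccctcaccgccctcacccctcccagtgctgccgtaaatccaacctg

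Library totals ranged from 29766575 to 38745907 counts. Unless given as a share of counts, CPM, the read counts of a gene relative to library depth, were scaled by TMM, which sets libraries level over most genes and so does not follow the share of the most abundant ones. Map4k1, the gene that encodes HPK1, had a mean of 7.54 ± 0.763 CPM (SD, n = 3) in MC and 3.43 ± 0.958 (n = 3) in its controls. KMC had 8.65 ± 3.86 CPM of Map4k1 and KC 1.05 ± 0.71 (n = 2 each). The libraries labelled HC had less Map4k1 than their controls, 6.77 ± 1.52 CPM (n = 3) against 13.5 ± 2.75 (n = 2). No direction below is therefore ascribed to HPK1. According to the study, HPK1 also acts in T cells, and leukocyte genes went the same way as Map4k1 in each experiment. The median log2 fold change of a leukocyte list was 0.96 in MC, -0.82 in HC and 2.64 in KMC. The part of leukocytes in the Map4k1 values was not tested, so these values do not serve as a check of the labels. Ddx3y, a Y-linked gene, measured 48.4 CPM in HC 3, where Xist measured 0.761 CPM, and 0 CPM in the other 4 libraries of its experiment. Both KC libraries had Ddx3y (10.7 and 17.3 CPM) and both KMC libraries had 0 CPM, so sex also cannot be told apart from genotype in that comparison. Neither Xist nor Ddx3y had values in the MC experiment, so sex could not be checked there. A list of acinar genes, including Cpa1, Cela1 and Prss2, took 39.4 to 48.8% of counts in MC libraries and 44.5 to 59.0% in control libraries. In KMC it took 52.7 and 26.6%, and in KC 73.7 and 64.0%. In the HC experiment it took 6.04 to 9.38% in all 5 libraries, although the label is pancreas.

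To examine how the factors stood after expression of M46, MC was compared with its controls. Of the 33 factors, 31 were lower and 2 higher in MC under TMM, with a median log2 fold change of -0.28. With library size alone 7 were lower and 26 higher, with a median of 0.08. The median of all 13902 genes tested was -0.02 and 0.29 under these scalings, and 53.1% of them were lower under TMM. No factor passed the test (edgeR, adjusted p of at most 0.05 and a log2 fold change of at least 1 in size), and 0.0% of all genes did. DESeq2 also called 0, against 3.19% of all genes. The smallest adjusted p among the factors was 0.0928, for Gnl3. At an unadjusted p under 0.05, edgeR had 15 of the 33 factors lower and 0 higher, against 5.46% of all genes lower and 9.2% higher. In 20 of the 33, every MC library was below every control library, against 9.89% of all genes. The 15 became 5 to 10 (and all genes 1.78 to 6.76%) when MC 1, MC 2, MC 3, MC control 1 or MC control 3 was left out, and 17 (11.8%) without MC control 2. They became 9 with the replicate number as a block (4.22%), 5 with library size without acinar genes (3.93%) and 0 with library size alone (0.288%). In bulk tissue, fewer cells that make a transcript and less of it per cell cannot be told apart.

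In the libraries labelled HC, 30 of the 33 factors were lower and 3 higher than in their controls. The median log2 fold change was -0.18, against 0.0 over 18407 genes, of which 50.2% were lower. No factor passed the test by edgeR or DESeq2, while 0.565% and 2.82% of all genes did. At an unadjusted p under 0.05 there was 1 factor, Dkc1 (lower), against 7.47% of all genes lower, and 0 higher, against 8.39%. The count was 0 without HC 2 (4.76% of all genes), 2 without HC 1 (10.4%) and 3 without HC control 1 (3.67%). It was 3 with library size alone (8.58%), 5 when acinar genes were left out of the library size (9.39%) and 4 with the replicate number as a block (9.2%). Groups did not overlap for 15 factors, all lower, against 16.1% of all genes. Without HC 3, the library with Y-linked counts, all 33 factors were lower, with a median of -0.23. Without HC control 2, 24 were lower, with a median of -0.13.

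In KMC, 29 of the 33 factors were lower and 4 higher than in KC under TMM, whereas with library size alone all 33 were higher. The median log2 fold change under TMM was -0.45, against 0.03 over 15733 genes, of which 48.7% were lower. No factor passed the test by edgeR or DESeq2, while 0.0191% and 13.8% of all genes did. At an unadjusted p under 0.05 there were 3 factors, Bysl, Rrs1 and Nolc1, all lower, against 9.48% of all genes lower and 16.1% higher. The 3 became 0 without KMC 2 (1.62% of all genes) or without KC 1 (1.26%), 1 without KMC 1 (10.5%) and 8 without KC 2 (12.0%). They became 5 with DESeq2 size factors (10.4%) or the replicate number as a block (12.6%), and 0 with library size alone, where 4 factors were higher, against 45.3% of all genes. KMC and KC did not overlap for 23 factors that were lower, against 30.9% of all genes, and for 2 that were higher, against 34.4%.

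**Figure D1:**
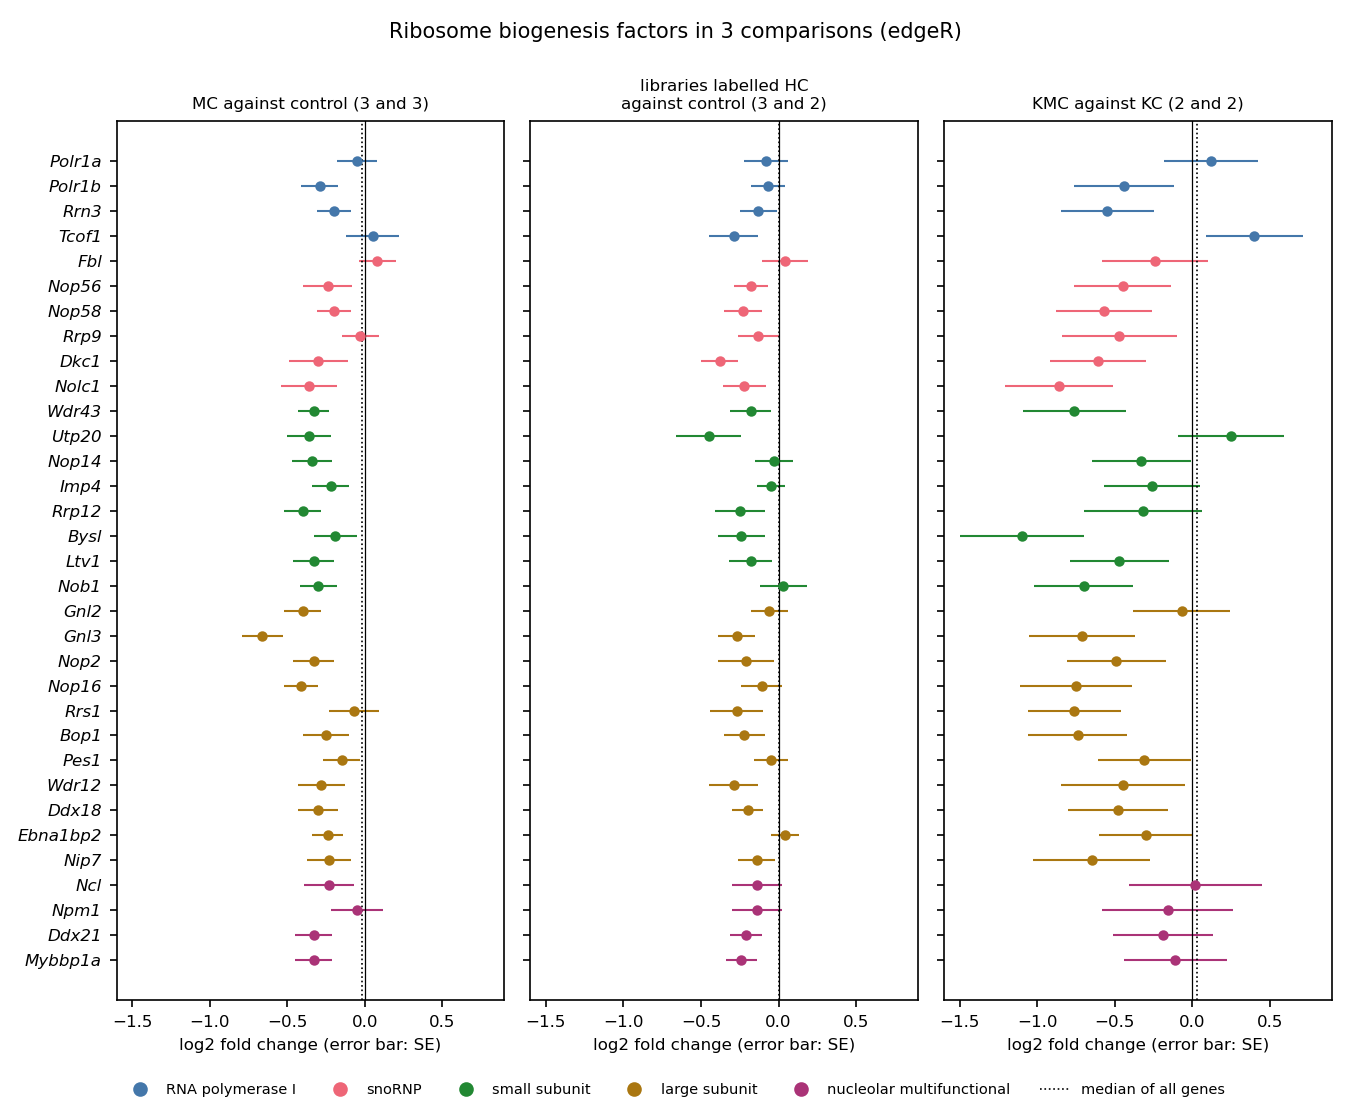
Log2 fold change with its standard error (edgeR) for 33 ribosome biogenesis factors in 3 comparisons, colored by role, with the median of all genes as a dotted line. Under TMM most factors lie left of 0 in each panel, with Gnl3 lowest in MC (-0.66) and Bysl lowest in KMC (-1.10), and error bars are widest for KMC.

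Library by library, the medians of the groups did not overlap in any experiment, although the gap was narrow in HC. Relative to the mean of their own controls, the median log2 ratio over the 33 factors was -0.32, -0.24 and -0.22 in MC 1, 2 and 3, and -0.01, -0.11 and 0.10 in MC controls 1, 2 and 3. The MC libraries did not overlap with their controls. In the libraries labelled HC the medians were -0.15, -0.26 and -0.08, and in their controls -0.05 and 0.05, so that HC 3 came close to a control without overlap. KMC had -0.38 and -0.45, and KC 0.12 and -0.13. These medians describe chosen genes and were not tested.

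**Figure D2:**
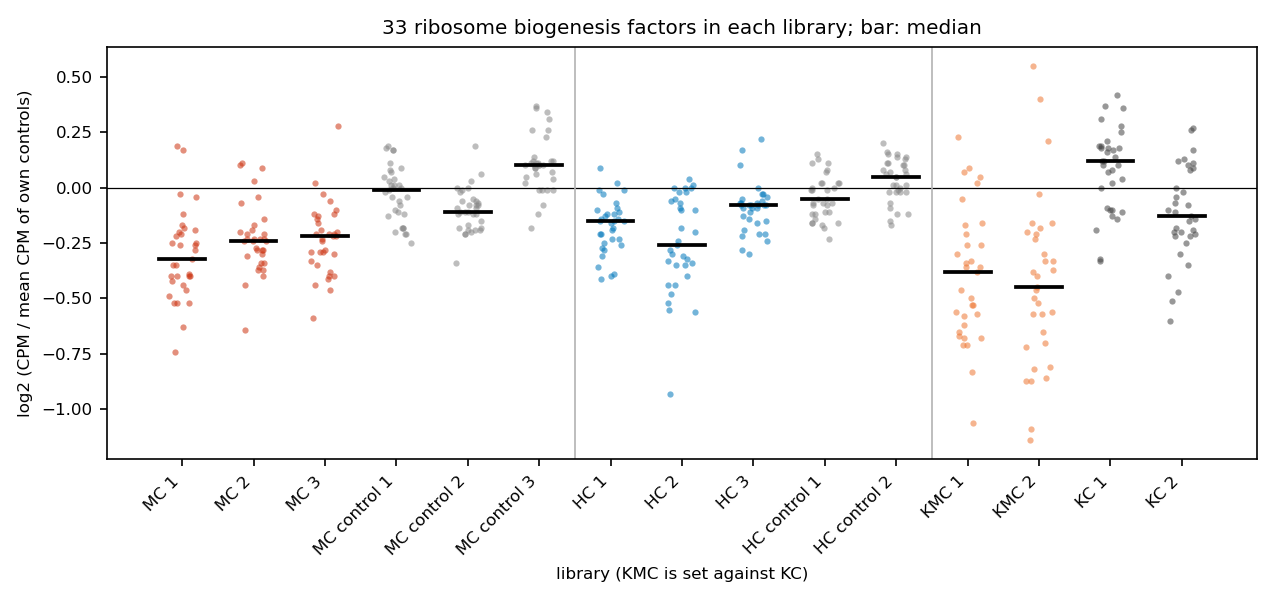
Log2 ratio of CPM to the mean of the own controls for 33 ribosome biogenesis factors (points) in each of 15 libraries, with the median as a bar, under TMM. Medians of the MC libraries lie between -0.32 and -0.22, those of their controls between -0.11 and 0.10, and those of KMC at -0.38 and -0.45.

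The direction depended on the scaling in MC and KMC, but not in HC. The distance of the factors' median from that of all genes stayed within -0.25 to -0.22 in MC, at -0.18 in HC and within -0.48 to -0.44 in KMC over the 4 scalings. A scaling shifts all genes of a library alike, so this distance could hardly change with it. Scaled by library size alone, the median of the factors was 0.08 in MC and 1.03 in KMC, whereas the median of all genes was 0.29 and 1.47. Scaled by library size without acinar genes, the factors had -0.20 in MC and 0.04 in KMC, and all genes 0.04 and 0.52. In the HC experiment the 4 scalings gave -0.18 to -0.22 for the factors and -0.04 to 0.0 for all genes. Counted against the median of all genes, 31 of 33 factors were below it in MC, 30 in HC and 30 in KMC. When 1 library was left out, these counts ranged from 28 to 31 in MC, 27 to 32 in HC and 29 to 31 in KMC.

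**Figure D3:**
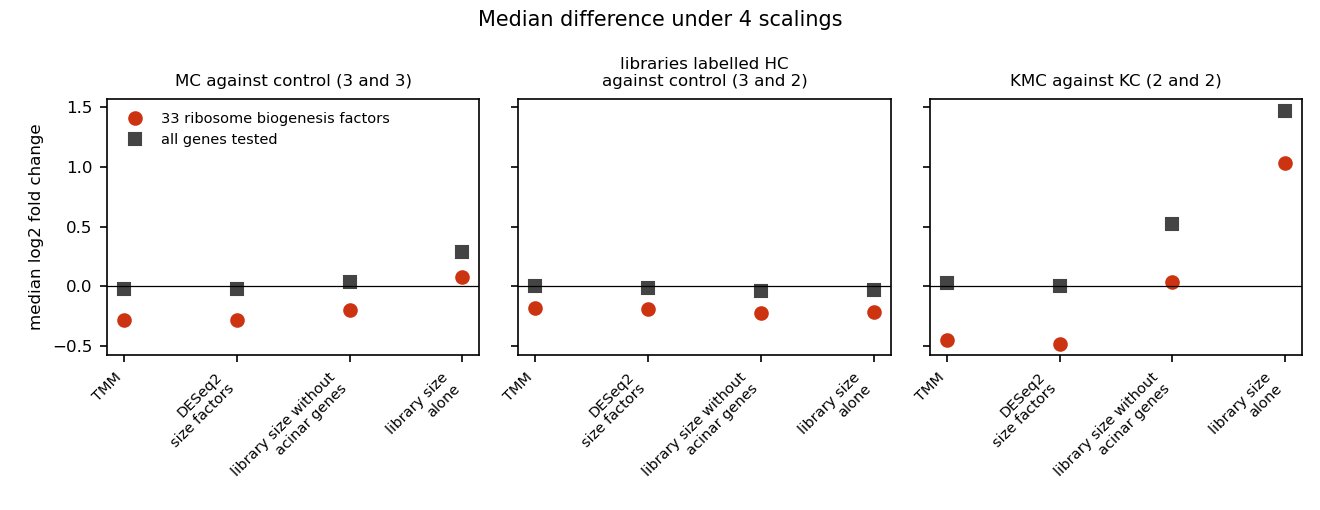
Median log2 fold change of 33 ribosome biogenesis factors (circles) and of all genes tested (squares) under 4 scalings in 3 comparisons. Both medians move up together with library size alone in MC and KMC, and the circles stay below the squares throughout.

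Of the 4 factors of RNA polymerase I, 3 were lower in MC (median -0.13), 4 in HC (-0.10) and 2 in KMC (-0.16). Polr1a encodes the largest subunit of the enzyme. It measured 26.5, 30.6 and 26.2 CPM in MC and 25.5, 30 and 31.0 in the controls. In HC it measured 49.0, 37.3 and 45.2 CPM, against 44.0 and 48.4. KMC had 18.4 and 21.0 CPM and KC 18.2 in both. Groups overlapped in MC and HC, and the log2 fold changes were -0.05, -0.08 and 0.12, each smaller than its standard error (0.13, 0.14 and 0.30). Polr1b encodes the second largest subunit. Its CPM were 17.1, 16.1 and 14.7 in MC and 19.4, 18.7 and 20.4 in the controls, with no overlap (log2 fold change -0.29, SE 0.12, adjusted p = 0.318). The HC values of 24.1, 22.9 and 23.3 CPM were all below 24.7 and 24.5 in the controls, but by little (-0.07, SE 0.11). KMC had 9.78 and 8.74 CPM, against 13.7 and 11.4 in KC (-0.44, SE 0.32).

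Rrn3 encodes TIF-IA, which brings RNA polymerase I to the promoter. The MC libraries had 24.3, 24.6 and 26.7 CPM and the controls 29.8, 26.6 and 30.5, overlapping only at 26.7 and 26.6. HC had 35.8, 39 and 40.3 CPM, against 38.1 and 45.7. In KMC it had 15.3 and 14.8 CPM, against 23.0 and 20.9 in KC, the smallest p of the 4 genes there (log2 fold change -0.55, SE 0.30, adjusted p = 0.275). Tcof1 encodes treacle, which couples transcription of ribosomal RNA to its processing. It had 20.0, 26.1 and 29.5 CPM in MC and 23.7, 27.8 and 21.4 in the controls, with full overlap. HC had 40.1, 29.5 and 36.9 CPM, against 47.7 and 39.2. KMC, with 16.1 and 20.1 CPM, was above KC, with 12.8 and 14.7. Tcof1 was thus the factor with the highest log2 fold change in KMC (0.40, SE 0.31, adjusted p = 0.443), and with library size alone it passed the test there (1.87, adjusted p = 0.0395), as did 30.0% of all genes, nearly all of them higher.

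Of the 6 snoRNP factors, 5 were lower in MC (median -0.22), 5 in HC (-0.20) and 6 in KMC (-0.52). Fbl, the methyltransferase fibrillarin, was the one not lower in MC (0.08) and HC (0.04). Nop58, a core protein of box C/D snoRNPs, had 32.4, 38.6 and 34.6 CPM in MC and 39.3, 39.1 and 43.0 in the controls. HC had 45.7, 43.2 and 51.4 CPM, against 50.8 and 58.6. KMC had 22.1 and 19.9 CPM, against 32.9 and 29.5 in KC. The groups did not overlap in MC and KMC, with log2 fold changes of -0.20 (SE 0.11) and -0.57 (SE 0.31). Nolc1 encodes Nopp140, a scaffold of snoRNP assembly. It had 29.9, 34.8 and 33.4 CPM in MC and 35.4, 36.8 and 53.9 in the controls. MC control 3 stood apart, and without it the log2 fold change went from -0.36 to -0.13. HC had 41.7, 32.7 and 43.3 CPM, against 46.4 and 44.9. KMC had 28.2 and 21.1 CPM, against 51.3 and 38.6 in KC, with no overlap (log2 fold change -0.86, SE 0.35, adjusted p = 0.179).

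Dkc1 encodes dyskerin, the pseudouridine synthase of box H/ACA snoRNPs, and lies on the X chromosome. The MC libraries had 19.6, 17.5 and 16.7 CPM, and the controls 20.2, 17.5 and 28.6. Here too MC control 3 set the difference (log2 fold change -0.30, and -0.06 without it). The HC libraries had 21.9, 21.1 and 23.4 CPM, all below 27.1 and 30.3 in the controls. It was the factor with the smallest p in that experiment (log2 fold change -0.38, SE 0.12, adjusted p = 0.208), and without HC 3, the library with Y-linked counts, it had -0.43. KMC had 11.2 and 10 CPM, against 17.6 and 14.9 in KC (-0.61, SE 0.31), where the sexes differed.

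All 8 factors of the small subunit were lower in MC (median -0.33, range -0.40 to -0.19). In MC 6 of them had an unadjusted p under 0.05, against 5.46% of all genes lower, and 7 had no overlap, against 9.89%. In HC 7 of 8 were lower (-0.18), and in KMC 7 of 8 (-0.40). Wdr43, a subunit of the U3 processome, had 35.0, 39.2 and 35.3 CPM in MC and 46.9, 45.3 and 45.6 in the controls. The groups did not overlap, but the factor did not pass the test (log2 fold change -0.33, SE 0.10, adjusted p = 0.222). In HC it had 45.3, 45.1 and 50.3 CPM, against 46.8 and 59.6, with overlap. KMC had 20.2 and 18.7 CPM, against 38.3 and 27.8 in KC (-0.76, SE 0.33). Utp20, a large scaffold protein of the processome, had 18.9, 24.1 and 25.5 CPM in MC and 29.0, 29.2 and 29.6 in the controls. HC libraries had 36.0, 22.4 and 35.2 CPM, against 42.8 and 42.7. It was lower without overlap in both, but HC 2 set much of the second difference (log2 fold change -0.45, and -0.26 without HC 2). In KMC it had 12.1 and 15.0 CPM, against 9.12 and 13.6 in KC, the only small subunit factor above 0 there (0.25, SE 0.34).

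Bysl encodes bystin, which is needed for late maturation of the small subunit. The MC libraries had 17.5, 17.1 and 18.5 CPM and the controls 17.8, 19.0 and 23.8, with overlap (log2 fold change -0.19, SE 0.14). In HC it had 14, 12.1 and 13.2 CPM, against 16.7 and 14.2. KMC had 7.81 and 7.39 CPM, against 21.9 and 10.8 in KC. Under TMM this was the largest difference of any factor (log2 fold change -1.10, SE 0.40, adjusted p = 0.159), and it rested in part on KC 1 (-0.51 without it). With library size alone Bysl was higher in KMC than in KC. Of the Bysl transcript, 9.37% of bases overlap exons of Ccnd3 on the other strand. Whether strand was used in counting is not given in the sources used here, so the reads of these bases could come from either gene.

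All 11 factors of the large subunit that were tested were lower in MC (median -0.28), 6 of them with an unadjusted p under 0.05 (5.46% of all genes) and 8 without overlap (9.89%). In HC 10 of 11 were lower (-0.20), and in KMC all 11 (-0.49). Gnl3 encodes nucleostemin, a nucleolar GTPase that is abundant in stem and proliferating cells. It lies at chr14:31012433-31019152 (GRCm38, minus strand). MC had 19.1, 20.4 and 21.1 CPM and the controls 33.9, 27.5 and 34.1, or 0.634 times the control level. This was the clearest difference of any factor in MC (log2 fold change -0.66, SE 0.13, adjusted p = 0.0928). DESeq2 gave an adjusted p of 0.00251, with the same log2 fold change, below the size needed for a call. Over the other settings the adjusted p ran from 0.0279 (without MC control 2) to 0.578 (library size alone). HC had 27.4, 26.6 and 30.3 CPM, all below 31.6 and 36.4 in the controls (-0.27, SE 0.12, adjusted p = 0.332). KMC had 15.2 and 12.3 CPM, against 26.7 and 18.3 in KC (-0.71, SE 0.34, adjusted p = 0.226). KC 1 set part of this difference (-0.43 without it), and with library size alone it turned to 0.76. Under TMM, Gnl3 was below its controls in all 8 libraries labelled with a transgene, as were Polr1b, Nolc1, Ltv1, Ddx18 and Ddx21. Of all genes, 9.89% were lower without overlap in MC, 16.1% in HC and 30.9% in KMC. The share of all genes lower without overlap in every comparison was not counted. The joint list of factors therefore has no matching background. All 33 factors were higher in KMC than in KC with library size alone.

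Pes1 encodes pescadillo, part of the complex with Bop1 and Wdr12 that processes the precursor of the large subunit RNA. It had 34.6, 37.5 and 39.5 CPM in MC and 46.3, 36.4 and 41.1 in the controls. In HC it had 50.7, 55.0 and 55.8 CPM, against 51.4 and 60.1. KMC had 18.8 and 19.3 CPM, against 25.3 and 22.1 in KC. Groups overlapped in MC and HC, and the log2 fold changes were -0.15, -0.05 and -0.31. Its partners Bop1 and Wdr12 had no overlap in MC (-0.25 and -0.28), but without MC control 3 the log2 fold changes were -0.05 and -0.11. Rrs1, which brings the 5S particle to the nascent subunit, had 17.3, 21.0 and 17.0 CPM in MC and 16.8, 18.3 and 23.2 in the controls. HC had 19.9, 20.1 and 26.0 CPM, against 23.7 and 29.1. In KMC it had 13.3 and 12.4 CPM, against 22.3 and 21.2 in KC. Rrs1 thus overlapped in MC and HC (-0.07 and -0.27) and did not overlap in KMC (log2 fold change -0.76, SE 0.30, adjusted p = 0.172).

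**Figure D4:**
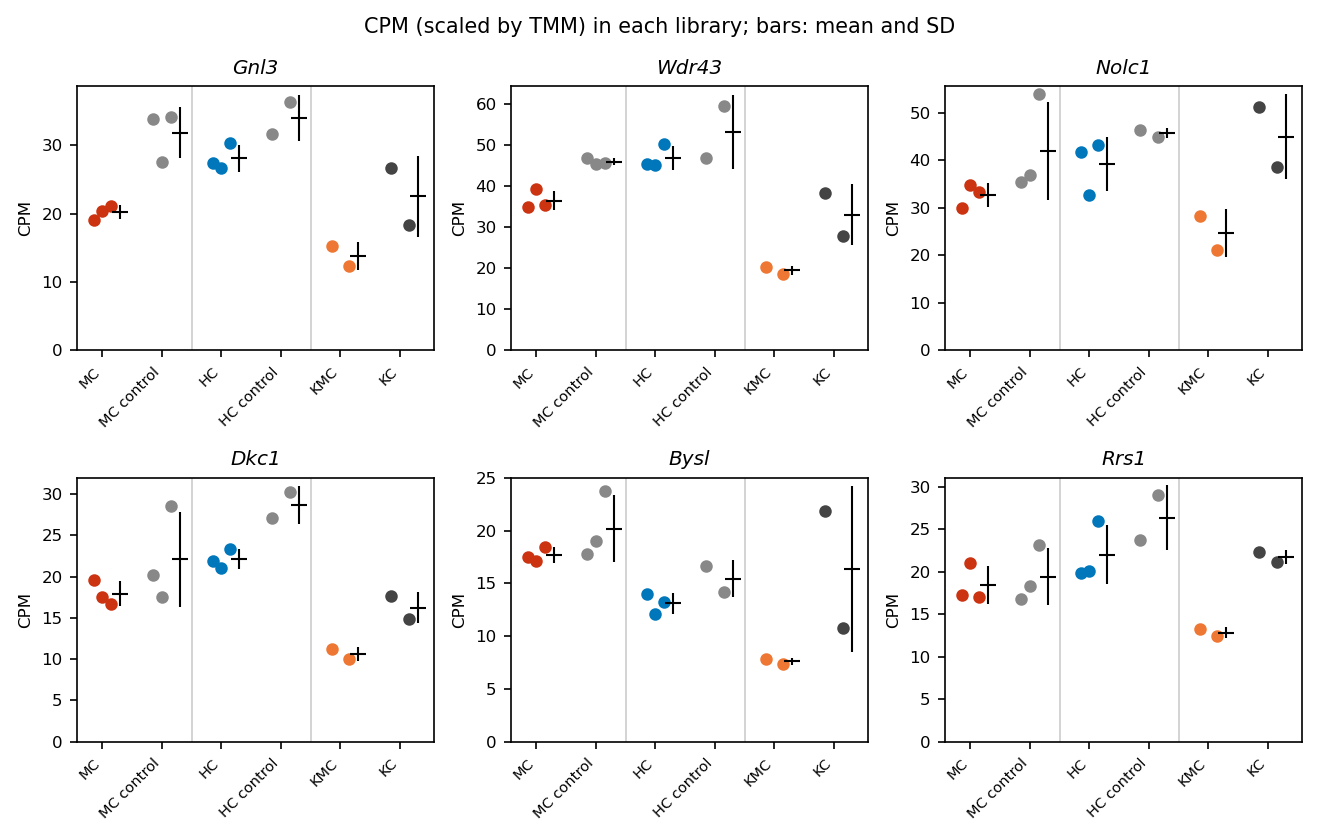
CPM scaled by TMM of 6 ribosome biogenesis factors in each library (points), with mean and SD, by group. Gnl3 and Wdr43 show no overlap between MC (19.1 to 21.1 and 35.0 to 39.2 CPM) and control, and Rrs1 separates KMC (12.4 and 13.3 CPM) from KC only.

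Of the 4 abundant nucleolar proteins with several roles, all 4 were lower in MC (median -0.28) and in HC (-0.17), and 3 in KMC (-0.14). Ncl, nucleolin, had 419, 333 and 353 CPM in MC and 466, 381 and 445 in the controls. HC had 343, 350 and 385 CPM, against 339 and 454. KMC had 138 and 129 CPM, against 115 and 148 in KC. Ncl overlapped in all 3 comparisons, with log2 fold changes of -0.23, -0.14 and 0.02. Ddx21, an RNA helicase that senses polymerase activity, had 79.7, 79.6 and 91.0 CPM in MC and 106, 96.6 and 113 in the controls. In HC it had 91.4, 88.1 and 94.7 CPM, against 99.6 and 111, and in KMC 37.8 and 36.6 CPM, against 38.5 and 46.4. The groups did not overlap in any of the comparisons, although the KMC difference was smaller than its standard error (log2 fold changes -0.33, -0.21 and -0.19, SE 0.12, 0.10 and 0.32). Mybbp1a, a nucleolar binding partner of MYB, had 85.3, 95.2 and 100 CPM in MC and 118, 109 and 126 in the controls. HC had 110, 106 and 120 CPM, against 127 and 139, and KMC 45.7 and 41.6 CPM, against 44.5 and 50. It was lower without overlap in MC (-0.33, adjusted p = 0.283) and HC (-0.24, adjusted p = 0.328) and overlapped in KMC (-0.11).

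Whether the effects differed between experiments was tested with an interaction term. Between MC and HC, 0 of 33 factors passed, against 2.18% of all genes. At an unadjusted p under 0.05 there were 2, against 20.8% of all genes. These were Gnl3 (difference of log2 fold changes -0.39, SE 0.17, adjusted p = 0.234) and Ebna1bp2, a large subunit factor chosen here after its value was seen (-0.29, SE 0.13, adjusted p = 0.24). Between MC and KMC, 0 of 33 passed by edgeR and by DESeq2, against 0.0% and 0.508% of all genes, and 2 had an unadjusted p under 0.05, against 16.2%. These were Bysl (0.96, SE 0.37) and Rrs1 (0.74, SE 0.26), each with an adjusted p of 0.298. Without KC 2, Bysl passed (1.38, adjusted p = 0.0279), as did 6.5% of all genes. DESeq2 called 0 factors between MC and HC too, against 6.94% of all genes. Both tests use the same MC and MC control libraries.

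Other genes of the pathway were then examined by lists. In MC, all 51 other small subunit factors tested were lower (median -0.22, 10 at an unadjusted p under 0.05) and 50 of 54 other large subunit factors (-0.22, 13 at that p). Of all genes, 53.1% were lower, 5.46% at that p. Lower values were also found for 14 of 17 other RNA polymerase I genes (-0.21), 13 of 13 other snoRNP genes (-0.14) and 11 of 14 genes of the RNA exosome, which trims precursor RNA (-0.10). Of the ribosomal proteins, the building blocks themselves, 42 of 46 were lower for the large (-0.11) and 27 of 32 for the small subunit (-0.07), with 0 at that p. Library size alone turned these 7 medians to between 0.10 and 0.25, with all genes at 0.29. None of the genes in these lists passed the test.

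In HC the lists went separate ways. Other small subunit factors were lower in 33 of 51 (median -0.12) and other large subunit factors in 37 of 54 (-0.07), against 50.2% of all genes, whereas other RNA polymerase I genes had 10 of 17 higher (0.08). Ribosomal proteins were higher, 46 of 47 for the large (0.25) and 32 of 32 for the small subunit (0.27), and their medians stayed so under all 4 scalings (0.21 to 0.25 and 0.23 to 0.27). The rise was not shared by all HC libraries. As plain shares of counts, the large ribosomal proteins took 18300, 26200 and 22900 CPM in HC 1, 2 and 3. Their controls had 18900 and 19900 CPM, both above HC 1. Groups did not overlap for 6 of 47 and 3 of 32 genes, all higher, against 17.5% of all genes. In KMC the ribosomal proteins were the lowest of these lists of the pathway, with 46 of 46 (-1.32) and 32 of 32 (-1.30) below KC, against 48.7% of all genes. Outside the pathway, acinar genes (-2.01) and adipocyte genes (-1.51) had lower medians in KMC. Relative to the median of all genes the ribosomal proteins stayed at -1.17 to -1.35 under all 4 scalings, but were above 0 with library size alone (0.26 and 0.30). As plain shares of counts, the large ribosomal proteins took 10900 and 15700 CPM in KMC and 14700 and 8800 CPM in KC, which overlap. Other small and large subunit factors were lower in 42 of 51 (-0.28) and 44 of 54 (-0.30) in KMC, above 0 under library size alone (1.17 and 1.18) and without acinar genes (0.22 and 0.20). No gene of these lists passed the test in HC or KMC. Many ribosomal protein genes and Npm1, nucleophosmin, have near-identical processed copies in the genome, so their counts are less certain than those of the other factors.

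**Figure D5:**
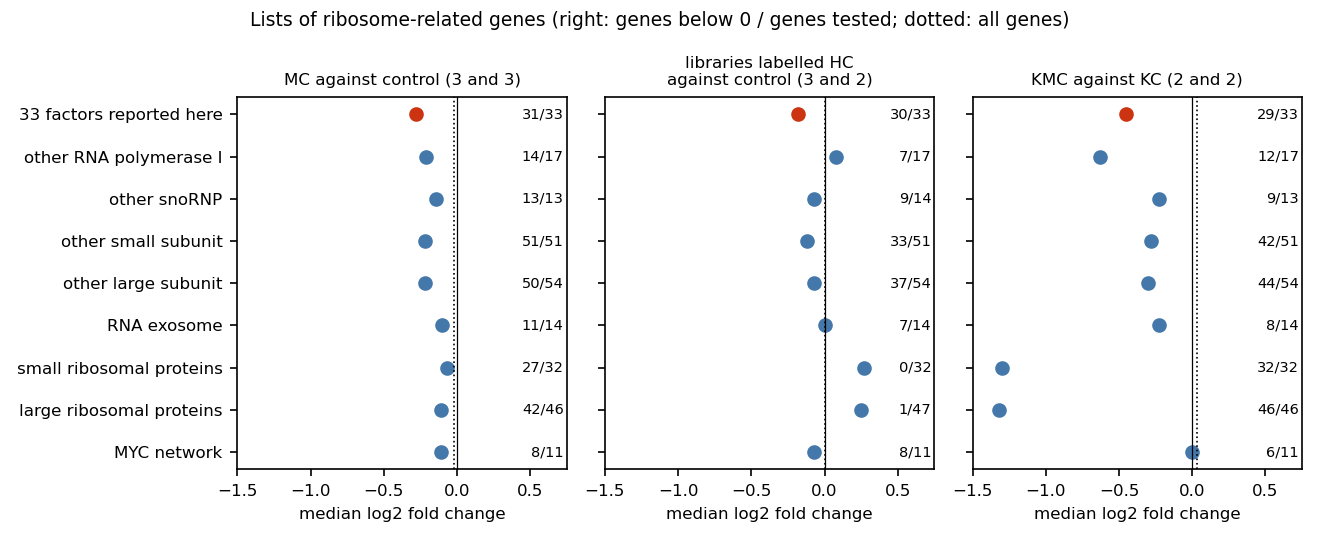
Median log2 fold change of the ribosome biogenesis factors and of 8 further lists in 3 comparisons under TMM, with the number of genes below 0 of those tested at the right and the median of all genes dotted. Ribosomal proteins lie at -0.11 and -0.07 in MC, at 0.25 and 0.27 in HC and at -1.32 and -1.30 in KMC.

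Myc itself had 29.2, 27.1 and 24.2 CPM in MC and 41.7, 36.6 and 56.3 in the controls, with no overlap (log2 fold change -0.74, SE 0.17, adjusted p = 0.139). In HC it had 30.4, 39 and 38.5 CPM, against 32.8 and 40.6, and in KMC 36.1 and 22.7 CPM, against 18.2 and 47.4 in KC. Both of these overlapped (-0.03 and -0.16). Among 11 genes of the MYC network, 8, 8 and 6 were lower in the 3 comparisons, with medians of -0.11, -0.07 and 0.0.

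Some lists of markers of other cells differed between the groups and others overlapped. They are given here as sums of their shares of counts (CPM of the library size, not scaled by TMM). In MC, a list of 6 leukocyte genes such as Ptprc summed to 329 to 606 CPM, against 102 to 370 in the controls, with 6 of 6 higher (median log2 fold change 0.96 under TMM). B cell genes summed to 30.5 to 112 CPM, against 2.98 to 5.48, and adipocyte genes to 74.4 to 180 CPM, against 28.6 to 37.4. The leukocyte ranges overlapped, whereas those of T cell, B cell and adipocyte genes did not. Ranges also overlapped in MC for ductal (1350 to 2530 CPM, against 861 to 2320) and islet genes (961 to 1980, against 740 to 2490). The same held for neutrophil, macrophage, fibroblast, endothelial and cell cycle genes. None of the 6 leukocyte genes was at 0 in any library. Of the cell cycle genes, 15 of 18 were higher in MC (median 0.69 under TMM). In the libraries labelled HC, leukocyte genes summed to 335 to 480 CPM, against 563 and 915 in the controls, with 6 of 6 lower (-0.82 under TMM). Cell cycle genes were lower in 15 of 18 (-0.67), but the only one that passed the test, Mcm6, was higher (edgeR, adjusted p = 0.0336). Among the B cell genes, Cd79a and Mzb1 passed the test in HC, both lower. Of all genes, 0.565% passed. KMC had 297 and 1170 CPM of leukocyte genes and 2670 and 13700 CPM of fibroblast genes, against 25.5 and 67.9 and 213 and 685 in KC. The median log2 fold changes of these lists were 2.64 and 2.63 under TMM and 4.16 and 4.1 with library size alone. The part of these cells in the values of the factors was not tested.

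Levels can be set side by side only per length of transcript. As CPM per kilobase of the principal GENCODE transcript, Npm1 was highest in all 6 groups, at 203 ± 29.7 (SD, n = 3) in MC and 72.8 ± 0.212 (n = 2) in KMC. The order rests on 1 length per gene, which was 8202 bases for Ncl and 1633 for Npm1. By CPM not divided by length, Ncl was above Npm1 in MC (368 against 331) but not in KC (132 against 133). Ncl came next in 5 groups (44.9 ± 5.48 in MC) and Nolc1 in KC (18.4 ± 3.68), where Nop58 (18.2 ± 1.41) and Ncl (16.1 ± 2.90) lay within its spread. Mybbp1a (21.5 ± 1.73) and Nop58 (20.5 ± 1.82) followed in MC and did not differ beyond their spread. Rrp12, which helps export both subunits, and Utp20 were among the lowest 3 of the tested factors in each of the 6 groups, at 2.57 ± 0.105 and 2.59 ± 0.397 in MC.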

How the data were processed

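RNA-Seq of 15 pancreas libraries was analysed. The authors aligned reads to GRCm38 (mm10) with STAR, and deposited raw counts per gene of GENCODE, not normalized, in 3 tables of 15175, 49585 and 49585 genes. The submitters' processing notes name bcl2fastq 2.17.14, STAR 2.6.1a, HTSeq 0.6.1 and DESeq2. The study's methods give the RNeasy kit and TruSeq stranded libraries, whereas the labels give Trizol and, for part of the samples, a KAPA stranded kit. A deposited table of the authors' own fold changes and p-values for MC was not used. No column lacked a sample. An allele that KMC and KC mice share is not reported here.

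Samples were grouped by their labels. Replicate libraries each held a pool of mice, and nothing gives pools as matched, so p-values measure the spread between pools. Counts were filtered with filterByExpr, scaled by TMM and tested with edgeR 4.0.16 in R 4.3.3 (glmQLFit with legacy = TRUE and glmQLFTest), within each experiment, with Benjamini-Hochberg adjustment over all genes tested. A call needed an adjusted p of at most 0.05 and a log2 fold change of at least 1 in size. The SE is the log2 fold change over the square root of F. Differences between effects were tested in 1 model with a mean per group, over genes in both tables. Alternatives were DESeq2 1.42.0, a newer form of the edgeR fit, 3 other scalings, no filter, the replicate number as a block and leaving out each library. The scripts were checked on simulated data in which 200 genes had been changed. No 2 libraries agreed within sampling noise. Intervals of counts and the limit of 3 counts cover counting error only.

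The 34 genes, their roles and the further lists were chosen with earlier results of these data known. In each role, the genes given in every library were the most abundant one over the 15 libraries and the one with the smallest p in each of the 3 comparisons. Gene positions are those of GENCODE (M21), with 15164 and 49326 identifiers matched in the smaller and larger tables. The length of a gene is that of its shortest APPRIS principal transcript. Promoters are from RefSeq (GRCm38.p6).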

Additional observations from a re-analysis of the deposited data

How the results depend on the processing

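None of the 33 factors was called in any of the 5 tests by the main settings, DESeq2, the newer edgeR fit, DESeq2 size factors, library size without acinar genes or no filter. With library size alone 1 was called in KMC (Tcof1, 1.87). Without KC 2, which leaves KC 1 alone in its group, the difference between MC and KMC was 1.38 for Bysl. Leaving out libraries, the median log2 fold change of the factors ranged from -0.33 to -0.19 in MC (lowest without MC control 2, highest without MC control 3), from -0.23 to -0.13 in HC and from -0.59 (without KC 2) to -0.31 (without KC 1) in KMC. With library size alone it was 0.08 in MC, 1.03 in KMC, 0.30 for the difference between MC and HC and -1.02 for that between MC and KMC. Without acinar genes it was 0.04 in KMC, 0.04 for the difference between MC and HC and -0.24 for that between MC and KMC. These scalings move all genes together by construction.

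With library size alone 26 of the 33 factors were higher in MC, and all 33 in KMC. Among the factors given in every library, the log2 fold change then turned above 0 in MC for Polr1a (0.28), Polr1b (0.03), Rrn3 (0.14), Nop58 (0.14), Nolc1 (0.01), Dkc1 (0.06), Bysl (0.15), Pes1 (0.19), Rrs1 (0.28), Ncl (0.09), Ddx21 (0.01) and Mybbp1a (0.01). It did so in KMC for Polr1b (1.02), Rrn3 (0.91), Nop58 (0.87), Nolc1 (0.57), Dkc1 (0.84), Wdr43 (0.72), Bysl (0.45), Pes1 (1.16), Gnl3 (0.76), Rrs1 (0.69), Ddx21 (1.22) and Mybbp1a (1.3). The differences turned to 0.02 for Gnl3 and 0.10 for Ebna1bp2 between MC and HC, and to -0.35 for Bysl and -0.44 for Rrs1 between MC and KMC. Without acinar genes Polr1a had 0.01 in MC, and Polr1b 0.06, Pes1 0.18, Ddx21 0.29 and Mybbp1a 0.37 in KMC. DESeq2 size factors gave Ncl -0.01 in KMC.

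Leaving out 1 library turned small values in MC for Tcof1 (-0.08 without MC 3, -0.01 without MC control 3), Polr1a (0.02) and Rrs1 (0.09, both without MC control 3). In HC it turned Polr1a (0.03 without HC 2) and, without HC control 2, Rrn3 (0.01), Wdr43 (0.0), Pes1 (0.07) and Ncl (0.08). In KMC it turned Ncl (-0.05 without KMC 1, -0.16 without KC 1) and Utp20 (-0.02 without KC 1). The cause was not tested.

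Over all genes, MC had 0 calls in the main fit, 475 by DESeq2, 1 with library size alone, 171 without MC 1 and 718 without MC control 2. HC had 104, against 483 by DESeq2, 50 without acinar genes, 395 with no filter and 0 to 379 leaving out libraries. KMC had 3, against 2130 by DESeq2, 4715 with library size alone (4695 higher), 1320 without acinar genes (1294 higher), 9 with no filter and 0 to 2312 leaving out libraries. The difference between MC and HC had 325, against 1011 by DESeq2, 98 with library size alone, 174 without acinar genes and 0 to 1584 leaving out libraries. That between MC and KMC had 0, against 77 by DESeq2 and 959 without KC 2. The replicate block left the factors' medians at -0.27 in MC, -0.22 in HC and -0.44 in KMC, with 0 factors called, and gave 0, 339 and 2464 calls over all genes. In MC, deviations of libraries that share a number correlated at 0.076, 0.313 and -0.347 across genes, and in HC and KMC only 2 pairs exist (0.214 and 0.202, and 0.101 and 0.101), so the numbers were taken as names. The precision is limited by 2 or 3 pooled libraries per group more than by depth.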
